A study of Mus musculus with 18 samples.

Results

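Cytochrome P450 enzymes are heme proteins, most of them anchored in the membrane of the endoplasmic reticulum, that insert oxygen into drugs, dietary chemicals, fatty acids, retinoids and sterols. Families 1 to 3 hold the enzymes best known for handling foreign chemicals, and in the small intestine they are made mainly in the villus epithelium, where they act on swallowed compounds before these reach the liver. Their genes are classic targets of ligand-activated transcription factors. The aryl hydrocarbon receptor (Ahr) acts on family 1, the constitutive androstane receptor (CAR, gene Nr1i3) on Cyp2b genes, and the pregnane X receptor (PXR, gene Nr1i2) on Cyp3a genes. All of these enzymes take electrons from P450 oxidoreductase (Por).

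The members were the genes whose symbol is Cyp1, Cyp2 or Cyp3 followed by a letter and digits, without pseudogenes, and they numbered 58 of the 54532 genes in the table. Family 1 had 3 members, family 2 had 48 and family 3 had 7, and all 58 are annotated as protein coding. They were followed in whole jejunum of mice of the inbred strain C57BL/6, 16 h after a single abdominal dose of 15 Gy in the irradiated groups. FLASH mice (7 libraries) received the dose at an ultra-high dose rate, CONV mice (5 libraries) at a conventional rate, and control mice (6 libraries) were left without irradiation. All mice were 8 to 12 weeks old, and the labels name no allele or other treatment. Whether the libraries stem from separate mice is not stated in the labels, so p-values cover library-to-library spread, which may be technical. In whole tissue, fewer cells of a type and less RNA per cell cannot be told apart.

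Libraries held 23.1 to 30.2 M estimated counts in FLASH, 19.9 to 27.0 M in CONV and 24.3 to 27.8 M in control. Levels below are CPM, the counts scaled to a common library size after normalisation. Markers of villus enterocytes were abundant in every library, with summed levels of 74167 to 116197 CPM in FLASH, 64156 to 111228 CPM in CONV and 23448 to 46390 CPM in control. Of these 16 markers, 12 passed the test as higher in FLASH than in control and 8 as higher in CONV than in control. Over all genes tested, 16.7% and 10.2% passed as higher in these contrasts. The sum was weighted towards a few lipid-handling genes: the apolipoprotein Apoa4 alone averaged 31786 CPM in FLASH, 23637 CPM in CONV and 5110 CPM in control. The brush border genes Vil1, Anpep and Lct, named after their values were seen, passed in neither contrast with control, with log2 fold changes of 0.12, 0.31 and 0.35 in FLASH (adjusted p 0.764, 0.39 and 0.496) and -0.23, -0.20 and -0.00 in CONV (adjusted p 0.58, 0.627 and 0.996). The summed enterocyte level was higher in the irradiated groups, as were most called P450 members, and its part in their changes was not tested. Libraries of each group also differed in how expression followed transcript length, and the lowest slopes of log2 expression on log2 transcript length were those of FLASH 1 (-0.34), CONV 6 (-0.44) and control 6 (-0.42). Control 6 had the highest value of its group for Cyp3a11 and several Cyp2c genes, and for named genes the value without it is given where it changed a call or a sign.

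Of the 58 members, 25 had enough counts to be tested and 33 did not. The low-count filter took the irradiated libraries into account. With the same floor applied to controls alone, 19 would have passed, and Cyp2c29, Cyp2c67, Cyp2d9, Cyp2d10, Cyp2j11 and Cyp3a59 would not. These 6 entered through the irradiated libraries, so counts and medians over the tested members are descriptions, and those against control and between the dose rates are given also for the 19.

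Promoter sequences are shown for 5 of the members with large changes after irradiation, because these genes come from 4 chromosomes, with Cyp3a11 and Cyp3a44 as neighbours in one cluster. The sequences come from RefSeq (build GRCm38.p6, the mm10 assembly). Each begins 250 bases before the RefSeq start and ends before the first annotated exon base in the window. It is written 5′ to 3′ on the strand of the gene. The Cyp2c29 stretch lies inside the annotated gene, which spans 39269405 to 39330713 on chromosome 19. Capitals mark letters that match AGTTCA or AGGTCA, the half-site letters bound by many nuclear receptors, or GCGTG, the core letters bound by the aryl hydrocarbon receptor, on either strand.
Cyp2b10 (chr7:25897408-25897619, plus strand): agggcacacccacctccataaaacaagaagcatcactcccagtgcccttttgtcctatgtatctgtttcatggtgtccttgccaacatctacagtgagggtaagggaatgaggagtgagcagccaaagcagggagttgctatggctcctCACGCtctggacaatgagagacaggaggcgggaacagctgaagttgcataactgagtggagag
Cyp3a11 (chr5:145879965-145880104, minus strand): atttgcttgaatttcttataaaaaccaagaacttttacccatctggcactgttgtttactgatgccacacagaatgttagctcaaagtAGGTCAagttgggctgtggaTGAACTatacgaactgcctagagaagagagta
Cyp3a44 (chr5:145805875-145806124, minus strand): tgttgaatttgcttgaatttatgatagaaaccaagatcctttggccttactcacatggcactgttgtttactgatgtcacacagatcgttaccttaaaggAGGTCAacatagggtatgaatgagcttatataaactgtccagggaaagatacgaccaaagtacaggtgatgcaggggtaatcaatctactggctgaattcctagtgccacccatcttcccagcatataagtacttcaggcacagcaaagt
Cyp2c29 (chr19:39286835-39287073, plus strand): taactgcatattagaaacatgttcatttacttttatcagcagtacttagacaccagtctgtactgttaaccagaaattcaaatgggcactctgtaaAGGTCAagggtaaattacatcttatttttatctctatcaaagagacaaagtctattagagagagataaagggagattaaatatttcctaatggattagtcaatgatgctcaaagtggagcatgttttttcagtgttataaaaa
Cyp2d10 (chr15:82407196-82407444, minus strand): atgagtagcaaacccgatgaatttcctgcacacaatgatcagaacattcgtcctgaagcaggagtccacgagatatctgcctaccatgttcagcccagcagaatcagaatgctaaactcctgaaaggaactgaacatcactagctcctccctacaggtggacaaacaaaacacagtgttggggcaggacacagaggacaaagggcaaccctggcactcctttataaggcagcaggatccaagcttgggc

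Cyp3a11 held AGGTCA at position -162 from the RefSeq start and the reverse complement of AGTTCA at -142. Cyp3a44 held AGGTCA at -150 and Cyp2c29 held it at -154. Cyp2b10 held the reverse complement of GCGTG at -101, in capitals above, and GCGTG itself at -9, past the end of the stretch shown, and no nuclear receptor half-site letters stood in its window. The Cyp2d10 window held no capitals. RefSeq promoters were found for 50 of the 58 members, in 53 windows of 300 bases that run to 50 bases past the start. AGGTCA stood in 35.8% of the member windows and in 16.3% of all 32851 promoter windows, AGTTCA in 11.3% and 14.0%, and GCGTG in 18.9% and 32.4%. TATAAA, letters not marked above, stood in 49.1% of the member windows and in 13.6% of all. Why the member windows differ from all windows was not tested. No 2 of these motifs overlapped in the windows shown. A match is a string of letters and not a measured binding site, and no match says only that these letters are not in the window.

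Taken as one pool, the members held 0.409% to 0.862% of all counts in FLASH libraries (median 0.669%). In the CONV libraries their share was 0.402%, 0.254%, 0.361%, 0.447% and 0.305% in CONV 2, 3, 5, 6 and 7, and in control libraries it was 0.0951% to 0.298% (median 0.181%). FLASH and control did not overlap, while the lowest CONV library lay below control 6, the highest control. A small number of genes made up most of it: Cyp3a11, Cyp3a13 and Cyp2b10 together gave a median of 80.0% of the member counts in FLASH, 68.2% in CONV and 52.1% in control. Cyp2b10 alone supplied a median of 22.3% of member counts in FLASH, 10.8% in CONV and 3.3% in control.

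**Figure D1:**
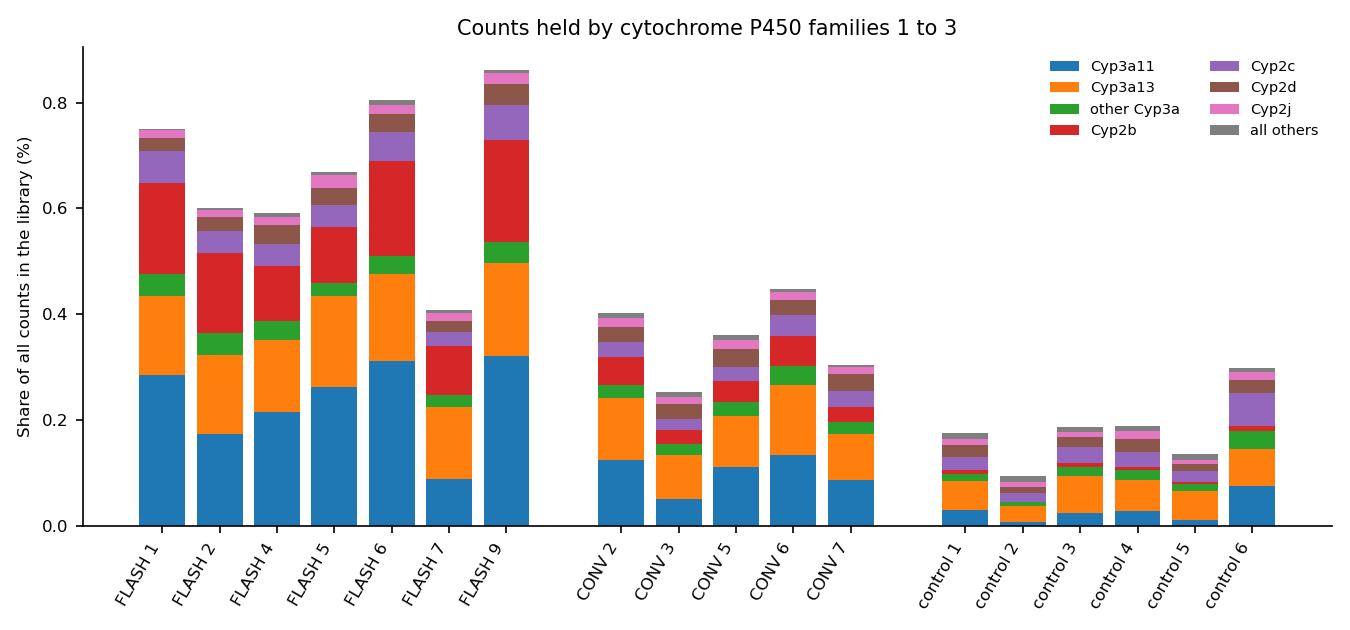
Share of all counts in each library (%, stacked bars) held by Cyp3a11, Cyp3a13, the other Cyp3a genes and the remaining subfamilies, with FLASH libraries left, CONV in the middle and control right. The bars reach 0.409% to 0.862% in FLASH, 0.254% to 0.447% in CONV and 0.0951% to 0.298% in control, and the Cyp3a and Cyp2b segments make most of the height in irradiated libraries.

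Against control, 14 of the 25 tested members were higher in FLASH and 1 was lower (edgeR quasi-likelihood test, Benjamini-Hochberg adjusted p below 0.05 over 16257 genes). Over all genes tested, 16.7% were called higher and 21.0% lower. The median log2 fold change of the tested members was 0.81, against -0.07 over all genes. In CONV, 11 members were higher than control and 2 were lower, with 10.2% of all genes called higher and 12.0% lower, and the member median was 0.87 against -0.04. Among the 19 members that the controls alone would admit, 10 were higher and 1 lower in FLASH, and 7 were higher and 2 lower in CONV, with medians of 0.63 and 0.68. Of the 25 tested members, 10 were higher in FLASH without overlap with control, against 6.93% of all genes tested. In CONV 9 of the 25 were higher without overlap, against 5.46% of all genes tested. Of the 19, 6 were higher without overlap in FLASH and 5 in CONV. Both contrasts use the same control libraries. With scaling by library totals in place of the TMM method, the median over all genes shifted to -0.44 in FLASH and -0.25 in CONV, 17.4% and 24.2% of all calls were higher (44.3% and 46.0% with TMM), and 11 and 10 members were still called higher.

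**Figure D2:**
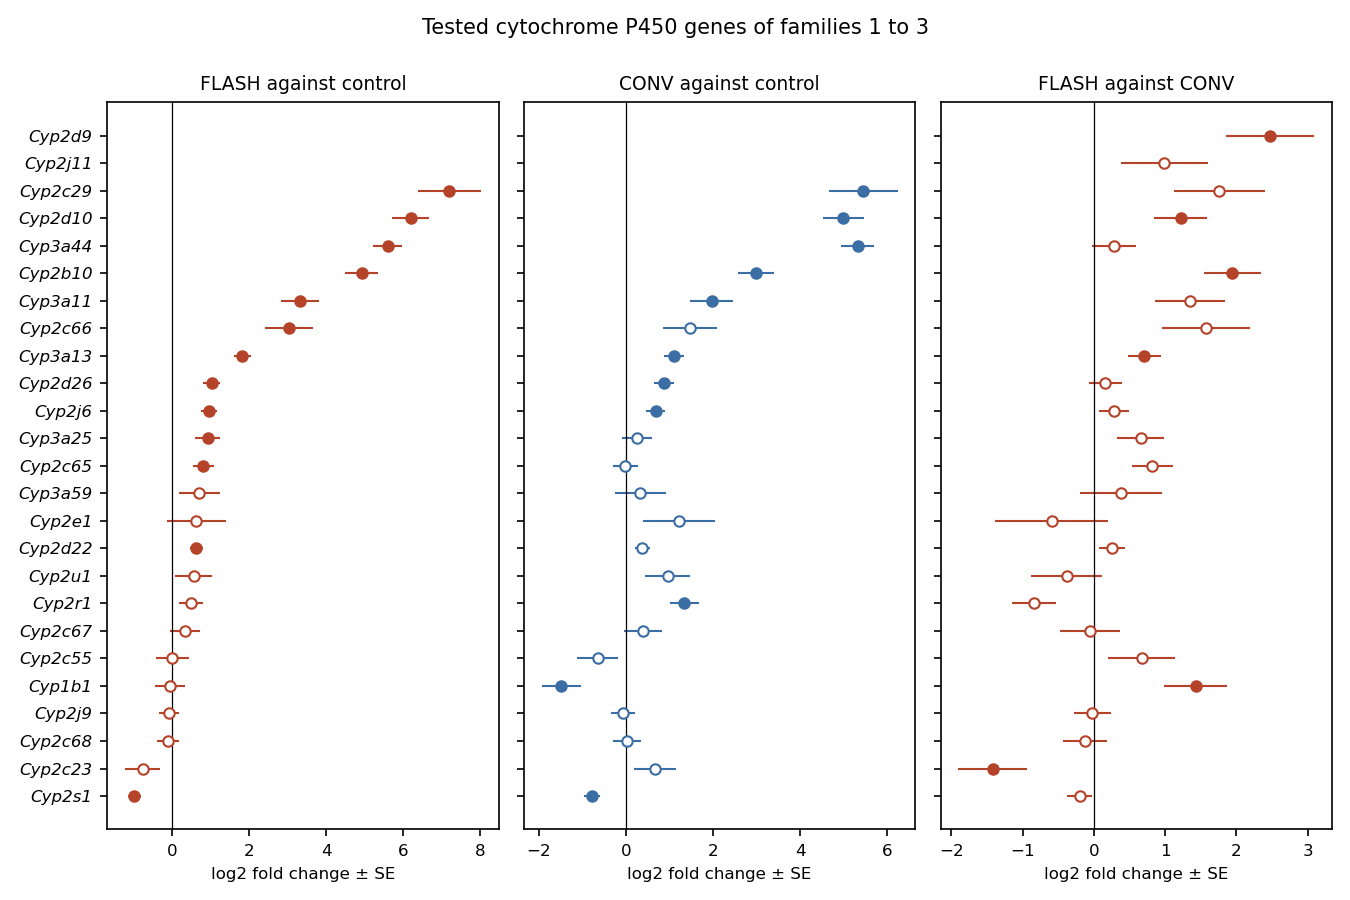
Log2 fold change of each tested member (points) with its standard error (bars) in FLASH against control, CONV against control and FLASH against CONV, filled where the adjusted p was below 0.05. Cyp2d9 and Cyp2j11 have no point against control because controls held at most 1 count, and Cyp2c29 at 7.20 and Cyp2s1 at -0.98 mark the extremes drawn in FLASH against control.

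Family 3 carried the most abundant members. Cyp3a11 (ENSMUSG00000056035, mm10 chromosome 5, 145854426 to 145879964, minus strand) is the main mouse counterpart of the human CYP3A drug-metabolising enzymes and a standard PXR target. It had 937 to 3668 CPM in FLASH libraries (median 2962), 1302, 455, 1079, 1604 and 834 CPM in CONV 2, 3, 5, 6 and 7, and 65.6 to 718 CPM in control (median 238). All FLASH libraries lay above all controls, whereas CONV 3 lay below control 6. The log2 fold change was 3.32 ± 0.50 in FLASH against control (SE, adjusted p = 5.7e-05) and 1.97 ± 0.49 in CONV against control (adjusted p = 0.00922). Without control 6 these were 3.90 and 2.55.

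Cyp3a13 (ENSMUSG00000029727, mm10 chromosome 5, 137892932 to 137921619, minus strand), a Cyp3a enzyme known for its expression in mouse intestine, stands apart from the main Cyp3a cluster. Its levels were 1435 to 2000 CPM in FLASH (median 1822), 1226, 764, 938, 1560 and 837 CPM in CONV 2, 3, 5, 6 and 7, and 233 to 663 CPM in control (median 499). Every irradiated library lay above every control, and CONV 6 was the single CONV library inside the FLASH range. The log2 fold change was 1.82 ± 0.22 in FLASH (adjusted p = 8.2e-06) and 1.11 ± 0.23 in CONV (adjusted p = 0.00301). Per kilobase of transcript, Cyp3a13 was the highest member in control (median 169 CPM per kilobase, with Cyp3a11 at 101), while Cyp3a11 was the highest in FLASH (1264, with Cyp3a13 at 616) and in CONV (460, with Cyp3a13 at 317).

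Cyp3a44 (ENSMUSG00000054417, mm10 chromosome 5, 145773983 to 145805874, minus strand), a gene known for female-specific expression in mouse liver, was a trace transcript in controls. It had 76.6 to 142 CPM in FLASH (median 118), 91.2, 68.8, 82.1, 135 and 75.5 CPM in CONV 2, 3, 5, 6 and 7, and 0.662 to 3.87 CPM in control (median 2.01). The irradiated libraries overlapped one another and stood far above the controls. Log2 fold changes were 5.60 ± 0.38 in FLASH (adjusted p = 2.1e-08) and 5.32 ± 0.38 in CONV (adjusted p = 3.3e-08). Of the 100-base windows of its transcript, 5.37% also occur in Cyp3a11, Cyp3a41a or a pseudogene, so part of its signal could be shared.

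Cyp3a25, another Cyp3a enzyme, averaged 282 ± 75.5 CPM in FLASH (SD, n = 7), 178 ± 69.2 CPM in CONV (n = 5) and 148 ± 87.8 CPM in control (n = 6). The groups overlapped, with control 6 at 308 CPM. It was called higher in FLASH (log2 fold change 0.93 ± 0.32, adjusted p = 0.028), a call lost when any of FLASH 1, FLASH 2, FLASH 9, control 1, control 2 or control 5 was left out (adjusted p 0.0504 to 0.0641) or with scaling by library totals (0.58, adjusted p = 0.0846). In CONV its log2 fold change was 0.26 ± 0.34 (adjusted p = 0.575). Cyp3a59 reached 1.13 CPM at most and did not pass the test in either contrast. Cyp3a41a, left out by the rule because its symbol ends in a letter, averaged 2.79 CPM in FLASH, 1.05 CPM in CONV and 0.123 CPM in control, and 90.8% of its 100-base windows are shared with Cyp3a41b or Cyp3a44.

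**Figure D3:**
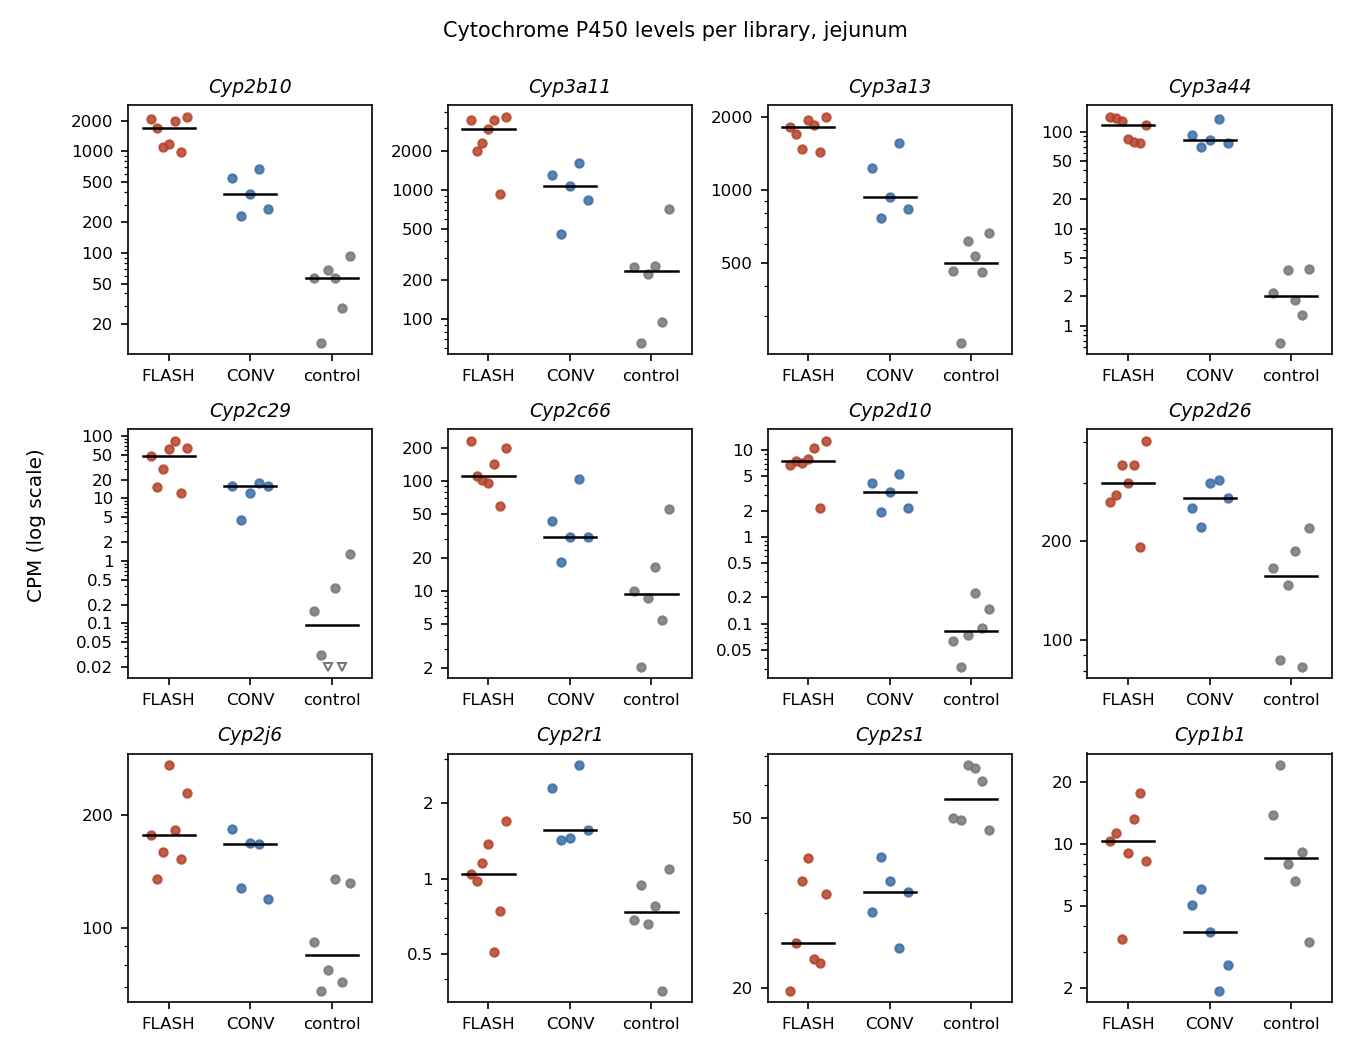
CPM per library on log axes for 12 members, with FLASH left, CONV in the middle and control right in each panel. Points are libraries, lines are group medians and open triangles are libraries with 0 counts. Cyp2b10 shows 3 separate bands (977 to 2190 CPM in FLASH, 231 to 669 CPM in CONV and 13.0 to 94.1 CPM in control), Cyp3a44 shows 2, and Cyp2s1 is highest in control.

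Cyp2b10 (ENSMUSG00000030483, mm10 chromosome 7, 25897620 to 25926624, plus strand), the standard target gene of CAR in the mouse, showed a stepwise order of the groups. Its levels were 977 to 2190 CPM in FLASH (median 1711), 543, 231, 379, 669 and 273 CPM in CONV 2, 3, 5, 6 and 7, and 13.0 to 94.1 CPM in control (median 56.6). No library of one group reached the range of another. The log2 fold change was 4.93 ± 0.43 in FLASH against control (adjusted p = 3.1e-07), a 30.4-fold difference, and 2.99 ± 0.41 in CONV against control (adjusted p = 9.1e-05), a 7.94-fold difference. None of its 100-base windows occurs in another annotated transcript. The other 4 Cyp2b members had at most 6.1 estimated counts summed over any group and were not tested.

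Cyp2c genes encode enzymes known for fatty acid epoxidation as well as drug oxidation, and they differed widely among themselves. Cyp2c29 (ENSMUSG00000003053, mm10 chromosome 19, 39269405 to 39330713, plus strand), a CAR-responsive gene in mouse liver, had 12.2 to 83.5 CPM in FLASH (median 47.1), 15.9, 4.57, 12.1, 17.9 and 16.0 CPM in CONV 2, 3, 5, 6 and 7, and 0 to 1.31 CPM in control (median 0.0939). Irradiated libraries did not overlap with controls, where 2 libraries had a count of 0. Log2 fold changes were 7.20 ± 0.82 in FLASH (adjusted p = 4e-06) and 5.44 ± 0.79 in CONV (adjusted p = 0.000165). Without control 6 they were 8.65 and 6.90. The pseudogene Cyp2c53-ps overlaps Cyp2c29 on the same strand over 5581 bases, and it held 167 counts in FLASH, 23 in CONV and 0 in control.

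Its neighbour Cyp2c66 (ENSMUSG00000067229, mm10 chromosome 19, 39113898 to 39187072, plus strand) had 59.5 to 233 CPM in FLASH (median 112), 43.8, 18.3, 31.2, 104 and 30.9 CPM in CONV 2, 3, 5, 6 and 7, and 2.05 to 55.6 CPM in control (median 9.36). FLASH lay above all controls, and 4 of the 5 CONV libraries lay below control 6. Cyp2c66 was higher in FLASH (log2 fold change 3.04 ± 0.62, adjusted p = 0.000894), and in CONV the log2 fold change of 1.47 ± 0.62 did not pass (adjusted p = 0.0883). Without control 6 these values were 3.97 and 2.40, and the CONV difference passed (adjusted p = 0.00225). Cyp2c65, which shares 7.82% of its windows with Cyp2c66, averaged 256 ± 64.5 CPM in FLASH, 145 ± 35.1 CPM in CONV and 146 ± 75.6 CPM in control (SD, n = 7, 5 and 6). It was called higher in FLASH (log2 fold change 0.81 ± 0.27, adjusted p = 0.0251), and the call was lost without FLASH 9, control 1 or control 5 (adjusted p 0.0522 to 0.0584) and with scaling by library totals (log2 fold change 0.46, adjusted p = 0.105).

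The abundant Cyp2c68 was one of the members with the smallest fitted change, with means of 71.9 ± 23.5 CPM in FLASH, 78.4 ± 20.4 CPM in CONV and 77.4 ± 44.7 CPM in control. Its log2 fold change of -0.11 in FLASH against control had a 95% interval of -0.68 to 0.46. Cyp2c55 averaged 30.5 ± 15.9 CPM in FLASH, 19.2 ± 9.98 CPM in CONV and 30.2 ± 23.2 CPM in control, and neither contrast with control passed. Both genes lie in the same chromosome 19 cluster as Cyp2c29 and Cyp2c66. In both, control 6 was far above the other controls, at 164 CPM for Cyp2c68 and 76.0 CPM for Cyp2c55. Without control 6 the log2 fold change in FLASH against control was 0.26 for Cyp2c68 (adjusted p = 0.395) and 0.53 for Cyp2c55 (adjusted p = 0.277), in place of -0.11 and 0.01.

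**Figure D4:**
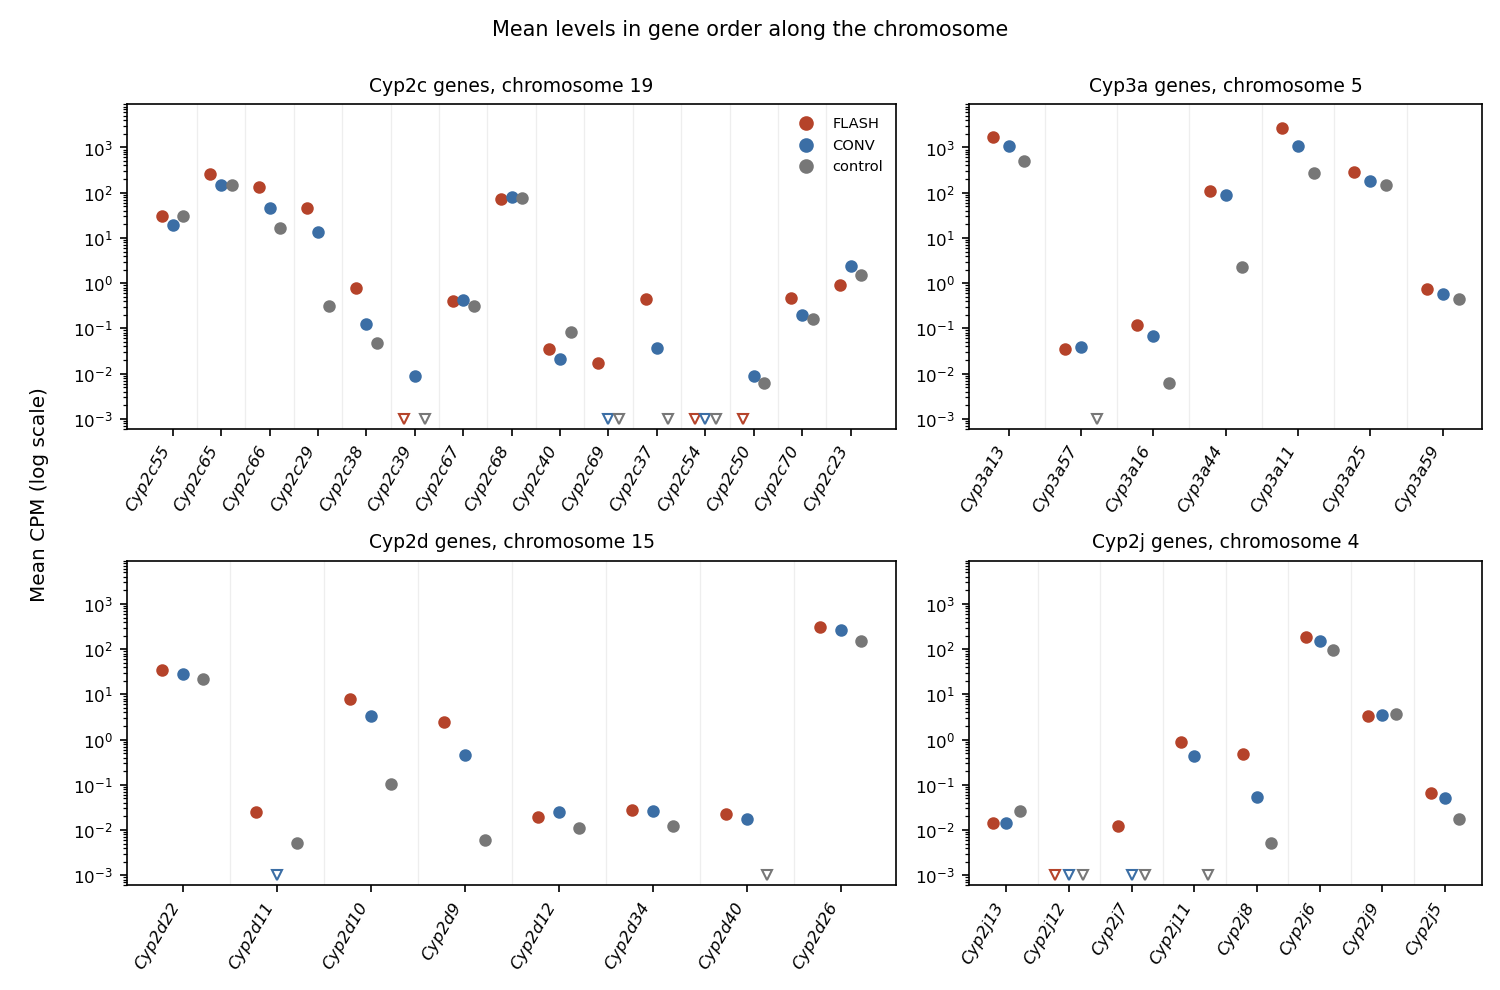
Mean CPM on a log axis for every Cyp2c, Cyp3a, Cyp2d and Cyp2j member in gene order along its chromosome, with FLASH left of CONV and CONV left of control within each gene. Open triangles are means of 0. Within the chromosome 19 panel, Cyp2c29 spans 44.9 CPM in FLASH, 13.3 CPM in CONV and 0.312 CPM in control, while Cyp2c68 stands at 71.9, 78.4 and 77.4 CPM in the same order.

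The Cyp2d subfamily, related to the human enzyme that oxidises many basic drugs, had 4 tested members, all higher in FLASH and 3 of them higher in CONV (16.7% and 10.2% of all genes). Cyp2d9 and Cyp2d10 are among those that passed the filter through the irradiated libraries. Cyp2d10 (ENSMUSG00000094806, mm10 chromosome 15, 82402846 to 82407195, minus strand) had 2.17 to 12.8 CPM in FLASH (median 7.43), 4.19, 1.92, 3.31, 5.37 and 2.16 CPM in CONV 2, 3, 5, 6 and 7, and 0.0315 to 0.223 CPM in control (median 0.0812). All irradiated libraries lay above all controls. Log2 fold changes were 6.20 ± 0.48 in FLASH (adjusted p = 6.7e-08) and 4.99 ± 0.48 in CONV (adjusted p = 1.8e-06). Near-identical stretches of Cyp2d9 and Cyp2d11 cover 14.8% of its windows, so the split of reads among these genes is uncertain.

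Cyp2d9, known as a male-specific steroid hydroxylase of mouse liver, held 418 counts over the FLASH libraries, 50 over the CONV libraries and 1 over the controls. The ratio of normalised counts was 441 in FLASH against control (95% counting interval 78.7 to 17459) and 71.6 in CONV against control (12.3 to 2884). FLASH 6 was the highest library at 7.19 CPM, against 1.07 to 2.17 CPM in the other FLASH libraries. Cyp2d26, the most abundant Cyp2d gene here, averaged 302 ± 67.9 CPM in FLASH, 269 ± 35.4 CPM in CONV and 148 ± 54.3 CPM in control. It was called higher in both contrasts with control (log2 fold changes 1.03 ± 0.22 and 0.87 ± 0.23, adjusted p = 0.00131 in FLASH and 0.0146 in CONV). Cyp2d22 was called higher in FLASH alone (medians of 36.7 CPM in FLASH and 21.8 CPM in control, log2 fold change 0.63 ± 0.17, adjusted p = 0.00742), and its call was lost with library totals (adjusted p = 0.222). In CONV the log2 fold change of Cyp2d22 was 0.38 ± 0.18 (adjusted p = 0.134), and FLASH and CONV differed by 0.25 ± 0.18 (adjusted p = 0.347).

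Among the Cyp2j genes, a subfamily known for making epoxides of arachidonic acid, Cyp2j6 is the main intestinal form. It had 135 to 272 CPM in FLASH (median 177), 184, 128, 169, 168 and 120 CPM in CONV 2, 3, 5, 6 and 7, and 68.2 to 135 CPM in control (median 84.8). FLASH and control met at 135 CPM, the lowest FLASH and the highest control level, and CONV overlapped with control. Its log2 fold change was 0.96 ± 0.20 in FLASH (adjusted p = 0.00116) and 0.68 ± 0.22 in CONV (adjusted p = 0.0313). The CONV call was lost in 7 of the fits that left out 1 library (adjusted p 0.0564 to 0.0856). Cyp2j11 had 140 counts in FLASH, 54 in CONV and 0 in control, at least 49.2-fold higher in FLASH and at least 25.8-fold higher in CONV with a floor of 3 counts over the control group. Cyp2j9 lay between 1.84 and 5.74 CPM in all libraries and passed in neither contrast.

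The remaining family 2 members act outside drug metabolism or are single genes of their subfamily. Cyp2s1, an epithelial enzyme linked to retinoid and lipid oxidation, was the single member lower than control after both dose rates. It had 19.7 to 40.4 CPM in FLASH (median 25.5), 30.2, 40.7, 35.7, 24.8 and 33.7 CPM in CONV 2, 3, 5, 6 and 7, and 47.0 to 66.8 CPM in control (median 55.6). Irradiated libraries lay below all controls, as for 6.86% of all genes in FLASH and 4.95% in CONV. The log2 fold change was -0.98 ± 0.17 in FLASH (adjusted p = 0.000242) and -0.78 ± 0.19 in CONV (adjusted p = 0.008). Its gene (ENSMUSG00000040703, mm10 chromosome 7, 25802475 to 25816913, minus strand) lies in the same chromosome 7 cluster as Cyp2b10, which was higher in both contrasts.

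Cyp2r1, a vitamin D 25-hydroxylase, was called in CONV alone among the contrasts with control. It averaged 1.07 ± 0.391 CPM in FLASH, 1.92 ± 0.630 CPM in CONV and 0.754 ± 0.255 CPM in control, with a log2 fold change of 1.34 ± 0.33 in CONV (adjusted p = 0.00802) and 0.50 ± 0.31 in FLASH (adjusted p = 0.204). After a per-library correction for transcript length and GC content, the CONV value was 0.70 (adjusted p = 0.0934). The direct difference between FLASH and CONV for Cyp2r1 was -0.84 ± 0.31 (adjusted p = 0.0637). Cyp2e1, known for ethanol oxidation, and Cyp2u1, a fatty acid hydroxylase, varied widely among irradiated libraries. Cyp2e1 spanned 0 to 6.14 CPM in FLASH, 0.135 to 6.70 CPM in CONV and 1.09 to 1.86 CPM in control, and Cyp2u1 spanned 2.81 to 41.2, 10.3 to 41.1 and 8.88 to 19.2 CPM in the same order of groups. Neither passed in any contrast.

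Family 1, the aryl hydrocarbon receptor branch, had 1 tested member. Cyp1b1 (ENSMUSG00000024087, mm10 chromosome 17, 79701537 to 79715061, minus strand), which oxidises estrogens and polycyclic hydrocarbons and is known from stromal cells, had 3.48 to 17.6 CPM in FLASH (median 10.3), 5.08, 6.07, 3.76, 1.94 and 2.59 CPM in CONV 2, 3, 5, 6 and 7, and 3.36 to 24.2 CPM in control (median 8.59). It was lower in CONV than in control (log2 fold change -1.48 ± 0.45, adjusted p = 0.0255), with overlapping groups. That call was lost without CONV 6, CONV 7, control 1 or control 2, with values between -1.07 and -1.39 (adjusted p 0.0501 to 0.0797). In FLASH against control the value was -0.05 ± 0.39 (adjusted p = 0.929). Cyp1a1, the most inducible target of the receptor, had too few counts to test, with 40 counts in FLASH, 14 in CONV and 121 in control. Its highest library reached 1.64 CPM in control 2. Controls 1 to 6 held 40, 52, 17, 2, 7 and 3 counts of Cyp1a1, against 2 to 11 in FLASH libraries and 0 to 10 in CONV libraries. Cyp1a2, a mainly hepatic enzyme, had 3 counts in FLASH, 1 in CONV and 7 in control.

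The 33 untested members were near the detection limit, and 3 of them (Cyp2c54, Cyp2j12 and Cyp2t4) had no count in any library. Some had most of their few counts in FLASH. Cyp2j8 had 82 counts in FLASH, 6 in CONV and 1 in control, with all 7 FLASH libraries above 0. Cyp2c37 had 77 counts in FLASH, 4 in CONV and 0 in control, at least 27.1-fold higher in FLASH than in control by the same floor, and Cyp2c38 had 130, 14 and 8. Cyp3a16 had 20.1 estimated counts in FLASH, 8 in CONV and 1 in control. Cyp2w1 went the other way in its group totals, with 12 counts in FLASH, 13 in CONV and 63 in control. Controls 1 to 6 held 14, 32, 0, 3, 9 and 5 of these. Counting intervals and floors cover counting error only, and a gene with no count in these libraries is not shown to be absent.

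FLASH and CONV were then compared directly. Of the 25 tested members, 5 were higher in FLASH than in CONV and 1 was lower, against 9.88% and 9.91% of all genes, and 19 did not pass. The member median was 0.38, against -0.02 over all genes. Among the 19 that the controls alone would admit, 3 were higher and 1 lower, with a median of 0.28. Cyp2b10 had the clearest separation, with a log2 fold change of 1.94 ± 0.40 (adjusted p = 0.0034), a 3.83-fold difference. It was the single tested member whose FLASH and CONV values did not overlap. As 1 of 25, this is a share near the 4.08% of all genes that were higher without overlap. Cyp2d9 was higher by 2.47 ± 0.62 (adjusted p = 0.00986), a value of 3.36 without CONV 2 and of 1.90 without FLASH 6. It met the low-count filter mainly through FLASH, where libraries held 25.4 to 182.2 estimated counts. CONV 2, 3, 5, 6 and 7 held 25.4, 6.1, 8.5, 8.4 and 2.0, so its call is a description.

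The other calls between the dose rates were smaller. Cyp1b1 was higher in FLASH by 1.43 ± 0.44 (adjusted p = 0.0287), Cyp2d10 by 1.22 ± 0.37 (adjusted p = 0.0279) and Cyp3a13 by 0.71 ± 0.23 (adjusted p = 0.0337). Cyp2c23, a low-level member known as an arachidonic acid epoxygenase from rat kidney, was lower in FLASH with a log2 fold change of -1.42 ± 0.48 (adjusted p = 0.0426), with 0.894 ± 0.436 CPM in FLASH and 2.40 ± 0.836 CPM in CONV. In CONV against control the value for Cyp2c23 was 0.67 ± 0.49 (adjusted p = 0.315), and without control 6 it was 1.16 and passed (adjusted p = 0.0485). Each of these 4 calls was lost in at least 5 fits that left out 1 library, with the direction kept. Leaving out single libraries gave 2 to 9 members called higher. The number was 2 without FLASH 6, CONV 5 or CONV 7, 3 without FLASH 9 or CONV 3, 8 without control 2 and 9 without control 6. The number of all genes called higher moved as well, from 1606 in the main fit. It was 1277, 1476 and 1078 without FLASH 6, CONV 5 and CONV 7. Without FLASH 9 and CONV 3 it was 1406 and 1302, and without control 2 and control 6 it was 1902 and 2014.

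Several abundant members differed by a similar amount without passing. The log2 fold change of FLASH against CONV was 1.35 ± 0.49 for Cyp3a11 (adjusted p = 0.0564), with FLASH 7 at 937 CPM below CONV 2, 5 and 6. It was 1.76 ± 0.64 for Cyp2c29 (adjusted p = 0.0594), 1.57 ± 0.62 for Cyp2c66 (adjusted p = 0.0796) and 0.82 ± 0.29 for Cyp2c65 (adjusted p = 0.0532). All 4 passed when control 6, which belongs to neither group of this contrast, was left out of the shared fit (adjusted p 0.0174 to 0.0225). For Cyp3a44 the difference was 0.28 ± 0.31 (adjusted p = 0.574), with a 95% interval of -0.34 to 0.89, and for Cyp2d26 it was 0.16 ± 0.23 (interval -0.28 to 0.61). Whether Cyp3a44 and Cyp2b10 differ in their response to dose rate was not tested.

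The receptors that control these genes were read as a list. Of 16 sensors and partners, 7 were higher and 2 lower in FLASH than in control, against 16.7% and 21.0% of all genes. In CONV 2 were higher and 2 lower than in control, which is 12.5% each way and near the 10.2% and 12.0% of all genes. Between dose rates, 7 were higher and 1 lower in FLASH than in CONV, against 9.88% and 9.91% of all genes. Nr1i2 (PXR) had 182 to 323 CPM in FLASH (median 193), 117, 78.6, 92.3, 178 and 87.1 CPM in CONV 2, 3, 5, 6 and 7, and 36.7 to 74.6 CPM in control (median 57.1). The groups did not overlap in any pair. Its log2 fold change was 2.04 ± 0.22 in FLASH against control (adjusted p = 2.7e-06), 0.97 ± 0.23 in CONV against control (adjusted p = 0.0069) and 1.07 ± 0.23 in FLASH against CONV (adjusted p = 0.00395).

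Nr1i3 (CAR) was a less abundant receptor transcript, with no call between the dose rates. It had up to 59.8 CPM in FLASH (median 38.3), 44.0, 25.9, 30.7, 76.3 and 35.4 CPM in CONV 2, 3, 5, 6 and 7, and 4.82 to 42.5 CPM in control (median 16.1). All groups overlapped, with control 6 the highest control. Its log2 fold change was 1.07 ± 0.38 in FLASH against control (adjusted p = 0.0341), 1.15 ± 0.41 in CONV against control (adjusted p = 0.0506) and -0.08 ± 0.39 in FLASH against CONV (adjusted p = 0.916). The FLASH call was lost in 7 of the fits that left out 1 library (adjusted p 0.0574 to 0.0731) and with library totals (0.74, adjusted p = 0.0839). The CONV difference passed without control 6 (1.55, adjusted p = 0.0045), without CONV 3 or FLASH 7 (adjusted p = 0.039 and 0.0452), and with DESeq2, limma-voom and limma-trend (adjusted p 0.0236 to 0.0441).

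Some other nuclear receptors were higher in FLASH than in CONV. Ppara, the fatty acid receptor, had a log2 fold change of 2.53 ± 0.26 in FLASH against control (adjusted p = 1.7e-06), 0.18 ± 0.27 in CONV against control (adjusted p = 0.63) and 2.35 ± 0.28 in FLASH against CONV (adjusted p = 0.000124). Nr1h4, the bile acid receptor FXR, had 1.91 ± 0.29, 0.10 ± 0.30 and 1.81 ± 0.31 for the same contrasts (adjusted p = 7.3e-05, 0.831 and 0.00106). Nr0b2, a repressor that is itself an FXR target, averaged 10.3 ± 7.01 CPM in FLASH, 8.33 ± 5.41 CPM in CONV and 0.238 ± 0.140 CPM in control. It was higher in both irradiated groups, by 5.42 ± 0.63 in FLASH (adjusted p = 4.8e-06) and 5.11 ± 0.64 in CONV (adjusted p = 3.6e-05). Between the dose rates Nr0b2 did not pass (0.31 ± 0.50, adjusted p = 0.712).

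On the aryl hydrocarbon side, Ahr averaged 12.2 ± 2.96 CPM in FLASH, 8.28 ± 1.79 CPM in CONV and 15.2 ± 6.00 CPM in control. It was lower in CONV than in control (log2 fold change -0.87 ± 0.27, adjusted p = 0.0279) and did not pass in FLASH (-0.32 ± 0.24, adjusted p = 0.315). The CONV call was lost without CONV 2, CONV 6, CONV 7, control 2 or control 4 (adjusted p 0.0513 to 0.0796). Ahrr, the repressor that is induced by Ahr, was lower in both irradiated groups without overlap, by -1.41 ± 0.22 in FLASH (adjusted p = 8.2e-05) and -1.12 ± 0.24 in CONV (adjusted p = 0.00385). Of the 4 tested Ahr targets outside the P450 families, 1 was higher and 1 lower in FLASH (16.7% and 21.0% of all genes). In CONV, 2 were higher and 1 was lower (10.2% and 12.0% of all genes). A list of 4 genes is short for this comparison. Tiparp, an enzyme that feeds back on Ahr, was among the risen in both (1.11 ± 0.19 in FLASH, adjusted p = 0.000185, and 0.65 ± 0.20 in CONV, adjusted p = 0.0281).

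**Figure D5:**
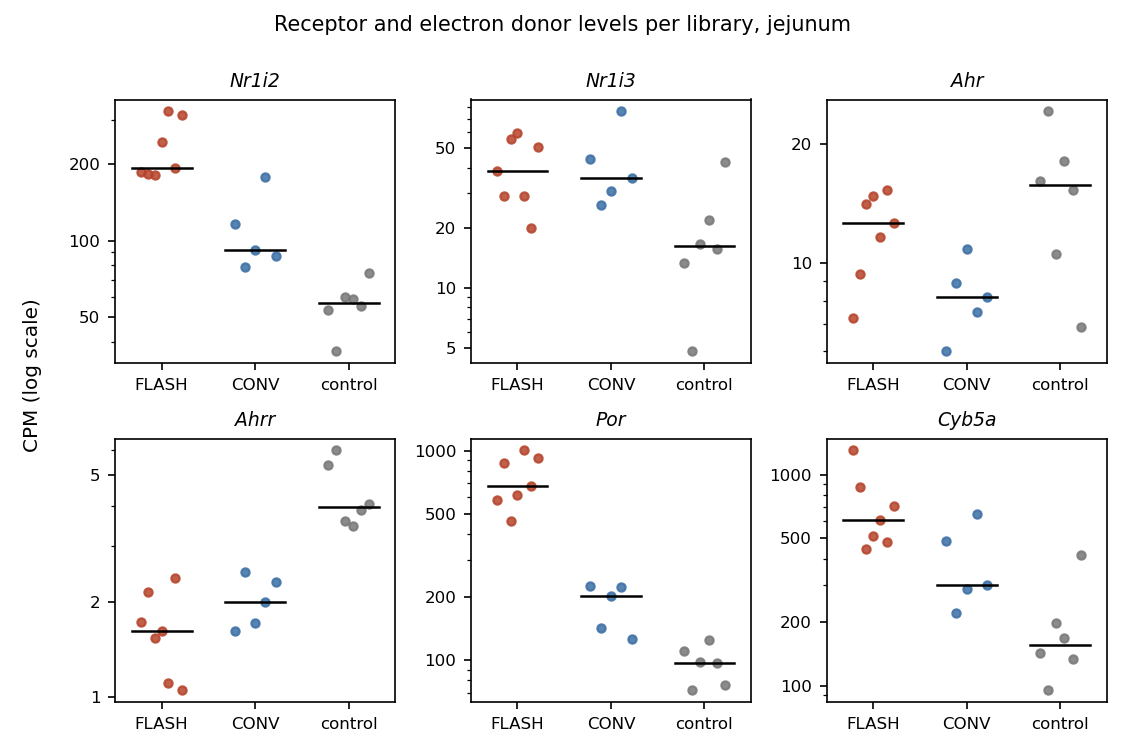
CPM per library on log axes for PXR (Nr1i2), CAR (Nr1i3), Ahr, Ahrr, P450 oxidoreductase (Por) and cytochrome b5 (Cyb5a), with FLASH left, CONV in the middle and control right and lines at group medians. Por separates all 3 groups (462 to 1002 CPM in FLASH, 126 to 227 CPM in CONV and 71.7 to 125 CPM in control), while Nr1i3 overlaps between FLASH and CONV.

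The electron supply of these enzymes was read from 5 genes, led by their shared donor. Por had 462 to 1002 CPM in FLASH (median 676), 227, 143, 203, 224 and 126 CPM in CONV 2, 3, 5, 6 and 7, and 71.7 to 125 CPM in control (median 97.4). The 3 ranges did not overlap. Its log2 fold change was 2.93 ± 0.22 in FLASH against control (adjusted p = 5.5e-08), 0.94 ± 0.22 in CONV against control (adjusted p = 0.00639) and 1.99 ± 0.23 in FLASH against CONV (adjusted p = 0.000102). Of the 5 genes, 3 were higher in FLASH than in control, 1 in CONV than in control and 1 in FLASH than in CONV (16.7%, 10.2% and 9.88% of all genes). Cyb5a, the alternative electron donor cytochrome b5, was higher in FLASH by 1.87 ± 0.35 (adjusted p = 0.000477), and in CONV its value was 1.02 ± 0.37 (adjusted p = 0.0532). The CONV difference of Cyb5a passed without control 6 (1.40, adjusted p = 0.00358), without FLASH 1 or CONV 3 (adjusted p = 0.0389 and 0.0349), and with DESeq2 and limma-voom (adjusted p = 0.0287 and 0.0353). Between the dose rates Cyb5a passed without control 6 (0.86, adjusted p = 0.0452).

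Other genes known to respond to PXR and CAR were read from a list of 11, of which 10 were tested. In FLASH 9 were higher than control, in CONV 4 were higher and 1 was lower, and 5 were higher in FLASH than in CONV (16.7%, 10.2% and 9.88% of all genes were higher), with medians of 1.53, 0.86 and 0.77 against -0.07, -0.04 and -0.02 over all genes. The glutathione transferase Gsta1 was higher by 3.61 ± 0.62 in FLASH (adjusted p = 0.0002) and by 3.20 ± 0.63 in CONV (adjusted p = 0.00183). Abcc2, an efflux pump of the apical membrane, was higher in FLASH against control (1.92 ± 0.31, adjusted p = 0.000108) and in FLASH against CONV (1.23 ± 0.32, adjusted p = 0.0123). The carboxylesterase Ces2a gave 1.11 ± 0.22 and 0.90 ± 0.24 for these contrasts (adjusted p = 0.000831 and 0.0133). Abcc3, a basolateral pump, was lower in CONV than in control (-0.87 ± 0.24, adjusted p = 0.0148) and had a value of -0.03 ± 0.21 in FLASH (adjusted p = 0.92). Between the dose rates Abcc3 was higher in FLASH than in CONV by 0.84 ± 0.23 (adjusted p = 0.0162).

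Heme is the prosthetic group of every P450, and the 8 genes of its synthesis moved in both directions. Alas1, which makes the committed step and is induced with P450 enzymes in liver, was higher in FLASH than in control by 0.65 ± 0.14 (adjusted p = 0.00149) and higher in FLASH than in CONV by 0.47 ± 0.15 (adjusted p = 0.0316). The first call was lost with library totals (0.28, adjusted p = 0.124), as was the second (0.30, adjusted p = 0.182). Fech, the last enzyme, was also higher in FLASH than in control (0.65 ± 0.15, adjusted p = 0.00232). In between, Uros was lower in FLASH than in control (-1.27 ± 0.29, adjusted p = 0.00234) and lower in FLASH than in CONV (-1.60 ± 0.30, adjusted p = 0.00191). In all, 3 were higher and 2 lower in FLASH against control (37.5% and 25.0%, beside 16.7% and 21.0% of all genes). In FLASH against CONV, 1 of the 8 was higher and 4 of the 8 were lower, beside 9.88% and 9.91% of all genes. The single call in CONV against control was Alad, which condenses aminolevulinate (0.58 ± 0.20, adjusted p = 0.0466), a share of 12.5% beside 10.2% of all genes. It was lost with library totals (0.38, adjusted p = 0.124) and in 12 of the fits that left out 1 library (adjusted p 0.0501 to 0.14).

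Many of these P450 genes are best known from liver, so hepatocyte markers were read in the same libraries. The 13 markers summed to 5.43 to 11.3 CPM in FLASH, 4.78 to 6.37 CPM in CONV and 2.05 to 5.80 CPM in control, and none was at 0 in all libraries. Alb, the most abundant hepatocyte transcript, was at 0 in 3 FLASH, 2 CONV and 2 control libraries and reached 0.209 CPM at most. Of the 5 markers tested, 3 were higher in FLASH than in control (Serpina3k, Ambp and Serpina1c) and 1 in CONV than in control (Serpina3k). Over all genes tested, 16.7% and 10.2% were higher in these contrasts. Serpina3k averaged 0.723 CPM in FLASH, 0.462 CPM in CONV and 0 CPM in control. The lowest irradiated library held 68.8 CPM of Cyp3a44 and 4.57 CPM of Cyp2c29. Whether liver RNA had a part in these or the other P450 levels was not tested. Exocrine pancreas markers summed to 3.91 to 8.83 CPM in FLASH, 3.95 to 9.62 CPM in CONV and 2.43 to 12.8 CPM in control, with Cela3b, Pnlip, Try4 and Cpa1 at 0 throughout.

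Markers of crypt base stem cells, smooth muscle and lymphocytes were mostly lower after irradiation. Over all genes tested, 21.0% were called lower in FLASH than in control and 12.0% in CONV than in control. Of 8 crypt base stem cell markers, 7 were lower in FLASH than in control and 5 in CONV than in control, with summed levels of 105 to 157 CPM in FLASH, 94.4 to 199 CPM in CONV and 708 to 1176 CPM in control. Of 8 smooth muscle markers, 8 were lower in FLASH and 4 in CONV (370 to 1182 CPM in FLASH, 159 to 1112 CPM in CONV and 1136 to 3468 CPM in control). The 8 lymphocyte markers summed to 735 to 1920 CPM in FLASH, 527 to 1765 CPM in CONV and 4778 to 9999 CPM in control, with 8 and 6 of them lower in FLASH and CONV. Paneth cell markers summed to 4197 to 12158 CPM in FLASH, 10991 to 19380 CPM in CONV and 14035 to 18783 CPM in control. Of these 6 markers, 5 were lower in FLASH than in control and than in CONV, while 1 was higher in CONV than in control. Among all genes, 9.91% were lower in FLASH than in CONV and 10.2% higher in CONV than in control. Endothelial markers summed to 132 to 296 CPM in FLASH, 97.7 to 154 CPM in CONV and 80.4 to 653 CPM in control, and both irradiated groups lay within the control range. Of these 8 markers, 1 was lower in FLASH (12.5%, beside 21.0% of all genes) and 2 in CONV (25.0%, beside 12.0%). The part of these shifts in the P450 levels was not tested.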

How the data were processed

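RNA of whole jejunum from 18 libraries (7 FLASH, 5 CONV and 6 control) was sequenced from 250 ng of RNA as stranded, single-end reads of 100 bp, per the labels' protocols. Per the submitters' processing notes, STAR, Salmon and the mm10 build were used (versions not given in the sources used here), with edgeR 3.40.2 and limma 3.54.2. One deposited table gave expected counts per gene, estimates by the authors with no scaling, and these were rounded to whole numbers. The second deposited table held log2 values normalized by the authors and served an alternative only. Symbols, lengths and positions came from the GENCODE annotation of mm10, which named 54409 of the 54532 gene IDs, and the 123 others stayed in library sizes. The labels and files name no batch.

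Genes were tested by quasi-likelihood in edgeR 4.0.16 (R 4.3.3). All libraries entered 1 model after filterByExpr, with TMM factors and Benjamini-Hochberg adjustment over 16257 genes. A gene is called at an adjusted p below 0.05. Standard errors were derived as the size of the log2 fold change divided by the root of F, and intervals are 95%. Positive values mean higher in the group named first. Folds against a count of 0 use a floor of 3 counts over the group. Every pair of libraries differed beyond sampling noise (chi-square per degree of freedom of at least 25.15). The pipeline was tested on simulated data. Read sharing is the share of 100-base transcript windows found in another gene.

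The members, the gene lists and the tests were chosen with earlier results of these data known. All tested members could be named, and from each gene list up to 4 genes with the smallest p in a comparison plus Nr1i2, Nr1i3, Ahr and Por. A gene that this rule names in the heme list is not reported here. Alternatives were DESeq2 size factors, library totals, a filter of at least 1 count, DESeq2 1.42.0, limma-voom and limma-trend (limma 3.58.1), fits restricted to the compared groups, a replicate block, and leaving out each library or control 6, CONV 6 and FLASH 1 together. Removing a length and GC trend (splines with 4 degrees of freedom) and admitting symbols that end in a letter (60 members) were chosen after seeing the data. Tables were built with pandas 2.3.3 in Python 3.11.15, and figures with matplotlib 3.10.9.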

Additional observations from a re-analysis of the deposited data

Results flagged for a closer look

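Among 87 sets of values checked for a sample far from its group, 10 were marked, and chance marks about 1 in 20. Control 6 accounted for 6 of them, with the highest control value of Cyp2c29 (1.31 CPM), Cyp2c55 (76.0 CPM), Cyp2c66 (55.6 CPM), Cyp2c67 (0.657 CPM), Cyp2c68 (164 CPM) and Cyp3a11 (718 CPM). Cyp2d9 was marked in FLASH 6 (7.19 CPM), CONV 2 (1.31 CPM) and control 3 (0.0365 CPM, a single count), and Cyp3a59 in CONV 7 (0.177 CPM, the lowest of its group).

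The response to irradiation differed between FLASH and CONV, by the direct test of the difference, for 6 members and for several named genes outside them. The log2 fold changes of FLASH against CONV were 1.43 for Cyp1b1, 1.94 for Cyp2b10, -1.42 for Cyp2c23, 1.22 for Cyp2d10, 2.47 for Cyp2d9, 0.71 for Cyp3a13, 1.07 for Nr1i2 and 1.99 for Por. They were 2.35 for Ppara, 1.81 for Nr1h4, 0.47 for Alas1, -1.60 for Uros, 1.23 for Abcc2, 0.84 for Abcc3, 0.90 for Ces2a and -0.87 for Cyp4f40.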

How the results depend on the processing

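None of the called members changed sign under any of the 29 alternatives. Of the 15 members called in FLASH, 12 kept their call in every alternative that gave a value. The same held for 10 of the 13 called in CONV and 2 of the 6 called between FLASH and CONV (Cyp2b10 and Cyp2d9). Cyp2d9 met the low-count filter mainly through its FLASH libraries, so its kept call between the dose rates is a description. The number of members lower in CONV than in control was 1 with limma-voom and with limma-trend, and 1 to 2 without single libraries. Over all genes, 1829 and 1512 were lower with limma-voom and limma-trend, against 1953 in the main fit. The number higher in FLASH than in CONV was 8 with DESeq2, 9 with only the 2 groups compared and 3 with the replicate block. It was 11 without control 6, CONV 6 and FLASH 1, 11 with the length and GC trend removed, and 2 to 9 without single libraries. Over all genes, 1606 were higher in the main fit. With DESeq2, only the 2 groups compared and the replicate block, 2268, 1664 and 795 were higher. Without the 3 libraries named and with the trend removed, 1998 and 2166 were higher. The number lower in FLASH than in CONV was 2 with library totals and with DESeq2, and 0 to 2 without single libraries. It was 0 with a filter of at least 1 count, with limma-trend and with the replicate block. Over all genes, 1611 were lower in the main fit, 2816 with library totals and 1826 with DESeq2. With at least 1 count, limma-trend and the replicate block, 1038, 1357 and 774 were lower. Library totals also gave the receptor partner Rxrb a value of -0.35 in FLASH against control (adjusted p = 0.0126), against 0.02 with TMM. The cause of these changes was not tested.

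Replicate numbers did not pair the libraries, since same-numbered libraries deviated with correlations of -0.27 to 0.61. With the block, the Cyp2c23, Cyp2d10 and Cyp3a13 differences between FLASH and CONV had adjusted p = 0.0576, 0.131 and 0.108 at log2 values of -1.69, 0.76 and 0.70, and 1569 genes differed between FLASH and CONV in place of 3217. For the same contrast Cyp2c29, Cyp2c66 and Cyp2c65 had 0.90, 1.35 and 0.69 with the block (adjusted p = 0.418, 0.106 and 0.147), and Cyp3a11 had adjusted p = 0.173. The CONV difference of Nr1i3 from control passed with it (1.46, adjusted p = 0.0368). Genes called between CONV and control numbered 1869 without CONV 6, 2171 without CONV 2, 2277 without control 2, 2359 without control 5 and 6493 without control 6, against 3615. At this depth 33 members had too few counts to test.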

Other observations

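The P450 genes of the other families, which act on sterols, bile acids, retinoids and fatty acids, were read for comparison. Of 35 such genes, 16 were tested. In FLASH against control 6 were higher and 4 lower (37.5% and 25.0%, beside 16.7% and 21.0% of all genes). In CONV against control 7 were higher and 2 lower (43.8% and 12.5%, beside 10.2% and 12.0%), and 2 were lower in FLASH than in CONV (12.5%, beside 9.91%). The sterol hydroxylase Cyp27a1 was higher in both irradiated groups without overlap with control, with log2 fold changes of 2.41 ± 0.23 in FLASH (adjusted p = 7e-07) and 1.84 ± 0.24 in CONV (edgeR, adjusted p = 5e-05). Cyp4a10, a fatty acid hydroxylase and standard target of Ppara, had 5.42 ± 1.08 in FLASH (adjusted p = 0.000757) and 4.94 ± 1.09 in CONV (adjusted p = 0.00456). Between the dose rates its value was 0.48 ± 0.87 (adjusted p = 0.738), beside 2.35 ± 0.28 for Ppara (adjusted p = 0.000124). Cyp39a1, an oxysterol hydroxylase, was lower in both irradiated groups (-1.05 ± 0.17 in FLASH, adjusted p = 0.000112, and -1.43 ± 0.19 in CONV, adjusted p = 7.1e-05). Cyp4f40 was lower in both as well (-2.15 ± 0.23 in FLASH, adjusted p = 2e-06, and -1.28 ± 0.25 in CONV, adjusted p = 0.00179) and lower in FLASH than in CONV (-0.87 ± 0.23, adjusted p = 0.0146). These genes were chosen for naming after their values were seen.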
